A study of Caenorhabditis elegans with 30 samples.

Results

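The flavin monooxygenase genes of Caenorhabditis elegans described here are 4 loci, fmo-1, fmo-2, fmo-4 and fmo-5, taken by their WormBase gene identifiers, WBGene00001476, WBGene00001477, WBGene00001479 and WBGene00001480, out of 46748 genes in the count table. All 4 passed the filter on low counts in every comparison. The values come from 30 RNA-seq libraries of whole hermaphrodites of the wild-type strain N2, aged 5 days, in 10 groups of 3. In each group animals were fed bacteria carrying a feeding vector, either L4440 without an insert or a clone against the gene whose sequence name labels the group. Titles begin with ZK or RM, prefixes that the labels do not explain, and each prefix has its own L4440 group, called L4440_ZK and L4440_RM. The ZK treatments are R186.7 (pnn-1), ZK795.1 (ipmk-1), C01A2.5 (tads-1) and M04C9.5 (dyf-5), and the RM treatments are F25H2.5 (ndk-1), F55H2.6 (clu-1), R04E5.10 (ifd-1) and F26D12.1 (fkh-7). The labels do not say that replicates came from separate cultures, so the p-values measure the spread between these libraries, which may be technical.

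Flavin monooxygenases hold FAD, take electrons from NADPH and put 1 atom of molecular oxygen onto nitrogen or sulfur in their substrates. In worms fmo-2 is the member known for induction: the hypoxia factor HIF-1, the nuclear receptor NHR-49 with the mediator subunit MDT-15, and the lysosomal regulator HLH-30 are known to raise it under low oxygen, oxidative stress, infection or dietary restriction, and its overexpression is known to lengthen life. fmo-4 has been placed downstream of fmo-2 in calcium signalling and is itself linked to osmotic balance. The roles of fmo-1 and fmo-5 are less well described and none is assigned here.

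On build WBcel235 fmo-1 (K08C7.2) lies at chrIV:10661857-10664404 and fmo-2 (K08C7.5) at chrIV:10682524-10684367, both on the plus strand, with 18119 bases and 3 protein-coding genes between them. fmo-4 (F53F4.5) at chrV:13603276-13606701 and fmo-5 (H24K24.5) at chrV:899304-903665 are on the minus strand. Their merged exons cover 2001, 1659, 2022 and 1751 bases, in the order fmo-1, fmo-2, fmo-4 and fmo-5. No annotated gene overlaps any of them, although K08C7.7 begins 29 bases after fmo-1 and K08C7.6 lies 64 bases beyond fmo-2 on the opposite strand. The libraries do not mark strand.

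Library totals ran from 31835911 to 44987307 gene counts. Replicates varied with a biological coefficient of variation of 5.42% (ZK) and 11.7% (RM), so a given fold change is known less precisely in the RM groups. Deviations from the group means of the RM libraries numbered 3 correlated with each other at -0.012 to 0.43, with a median of 0.128, against -0.394 to 0.341 between RM libraries of different groups and numbers. Reads of the targeted gene fell in R186.7, ZK795.1, C01A2.5, F25H2.5 and F55H2.6, with log2 differences from -4.46 to -0.62. In the libraries labelled M04C9.5 the target dyf-5 instead rose, with 231 to 371 counts against 7 to 15, and in those labelled R04E5.10 ifd-1 rose, with 678 to 910 counts against 113 to 237. Libraries labelled F26D12.1 had 716 to 1134 counts of the target fkh-7 against 745 to 809, a log2 difference of 0.23 ± 0.15 (SE) with an edgeR adjusted p of 1. The names M04C9.5, R04E5.10 and F26D12.1 below stand for the libraries so labelled, and any direction drawn from them is that of the label. Defining markers of intestine, hypodermis, pharynx, body wall muscle, neurons, excretory system, germline, oocytes and sperm were all detected in every group, and 0 of them were at 0 in a whole group.

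Levels below are CPM, the counts per 1000000 counts of a library, after scaling by the trimmed mean of M values. Differences are log2 fold changes ± SE against the L4440 group of the same prefix, with n = 3 libraries per group, and p-values are from edgeR's quasi-likelihood test, adjusted by Benjamini and Hochberg over all genes tested, with a threshold of 0.05. Where levels of different members are set side by side they are per kilobase of exon.

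In animals fed the empty vector, fmo-4 made up most of the RNA of these 4 genes and fmo-1 the least. Per kilobase, L4440_ZK held 8.83 ± 0.762 CPM of fmo-4 (SD), 3.28 ± 0.308 of fmo-5, 1.55 ± 0.336 of fmo-2 and 0.362 ± 0.0171 of fmo-1. L4440_RM gave the same order, with 9.61 ± 1.47 and 4.68 ± 0.291 CPM per kilobase for fmo-4 and fmo-5, then 1.39 ± 0.659 for fmo-2 and 1.17 ± 0.457 for fmo-1, which lie within each other's spread. The summed level of the 4 genes was 14.0 ± 1.31 CPM per kilobase in L4440_ZK and 16.8 ± 2.397 in L4440_RM, and its mean lay between 15.2 and 28.0 in every treatment but C01A2.5, where it reached 48.1 ± 2.02.

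**Figure D1:**
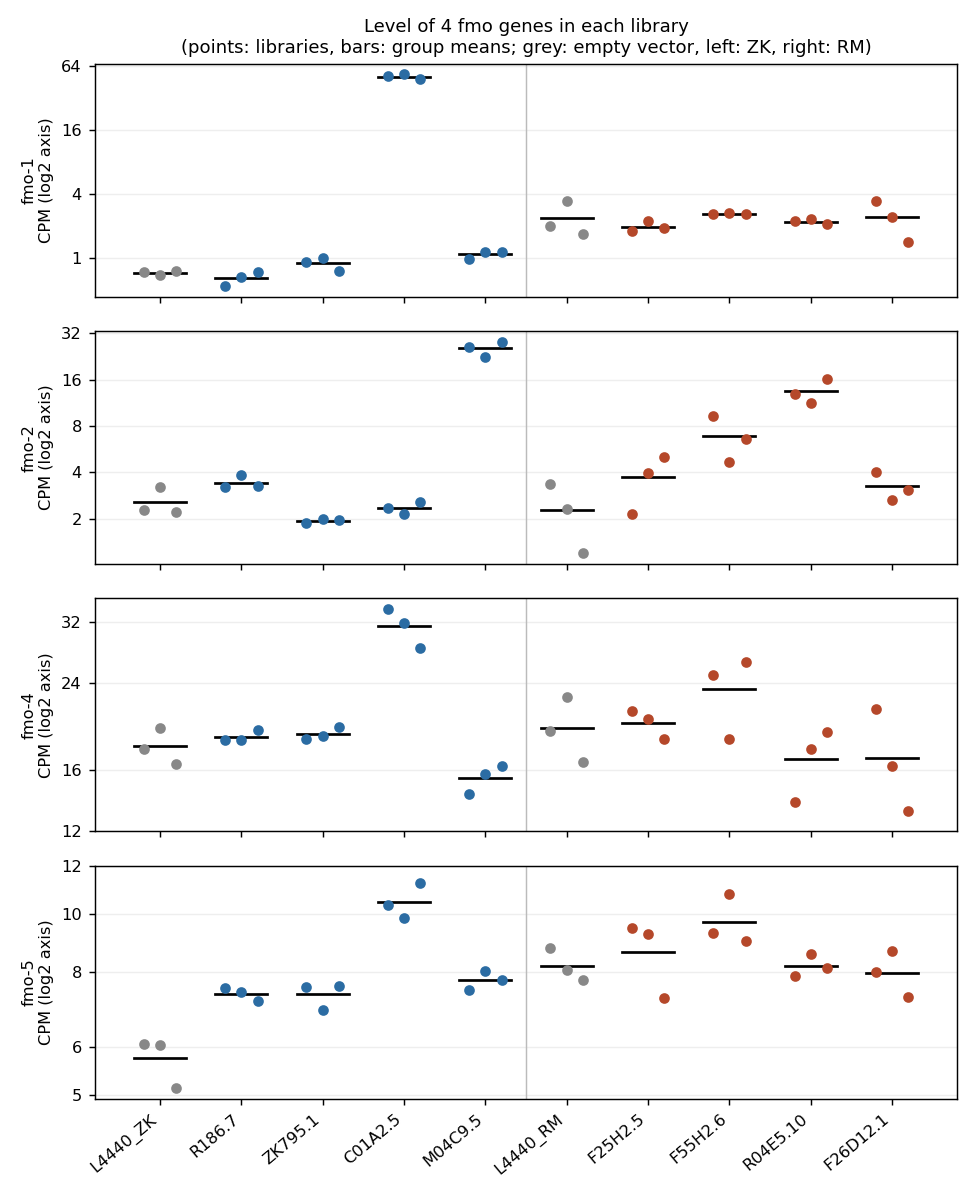
Level of fmo-1, fmo-2, fmo-4 and fmo-5 in CPM (log2 axis) in each of the 30 libraries. Points are libraries, horizontal bars are means of 3 and grey marks the empty vector. fmo-1 stands at 50.5 CPM in C01A2.5, and fmo-2 at 25.6 CPM in M04C9.5 and 13.5 CPM in R04E5.10.

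fmo-2, the stress-inducible member, rose in 3 of the 8 treatments. In the libraries labelled M04C9.5 fmo-2 stood at 26.2, 22.3 and 28.2 CPM, against 2.30, 3.21 and 2.20 CPM in L4440_ZK. All 3 were above all 3 controls, and in raw reads this was 922 to 1089 counts against 87 to 103. The log2 difference was 3.32 ± 0.12, a 10.0-fold rise (adjusted p = 7.12e-20), the 17th largest rise and the 5th smallest p among the 16495 genes tested. In the libraries labelled R04E5.10 fmo-2 stood at 13.0, 11.3 and 16.1 CPM, against 3.38, 2.33 and 1.19 CPM in L4440_RM. The groups did not overlap, although the L4440_RM libraries differed among themselves by more than those of L4440_ZK. The log2 difference was 2.56 ± 0.38, a 5.91-fold rise (adjusted p = 4.36e-03). Among 15795 genes this was the 5th largest rise, with the 52nd smallest p.

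In F55H2.6, where clu-1 is the target, fmo-2 stood at 9.28, 4.68 and 6.58 CPM. Every library was above the L4440_RM range, and the spread was wide within both groups. The log2 difference was 1.55 ± 0.38, a 2.93-fold rise (adjusted p = 0.0134). Among 15795 genes this was the 155th largest rise, with the 1462nd smallest p. With replicates 1 and 2 of every RM group alone, the adjusted p rose to 0.14 in F55H2.6, at a log2 difference of 1.26, and to 0.0603 in R04E5.10, at 2.11.

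In the other 5 treatments fmo-2 did not pass the threshold. R186.7 had 3.20, 3.85 and 3.27 CPM, which overlapped L4440_ZK, at a log2 difference of 0.43 ± 0.14 (adjusted p = 0.104). That value passed without L4440_ZK replicate 2, the highest control, at 0.60 with an adjusted p of 0.0287, and without the filter on low counts, at 0.43 with 0.0474. ZK795.1 had 1.87, 2.01 and 1.96 CPM, below all 3 controls, at -0.38 ± 0.16 (adjusted p = 0.237). C01A2.5 had 2.37, 2.16 and 2.58 CPM, which overlapped L4440_ZK, at -0.11 ± 0.15 (adjusted p = 0.466). F25H2.5 had 2.14, 3.96 and 5.04 CPM, and F26D12.1 had 4.02, 2.65 and 3.08 CPM. Both overlapped L4440_RM, at 0.67 ± 0.38 (adjusted p = 0.296) and 0.49 ± 0.39 (adjusted p = 1). The empty-vector groups themselves did not differ detectably in fmo-2, at -0.14 ± 0.32 (adjusted p = 0.749).

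The order of the fmo-2 means within ZK was M04C9.5, R186.7, L4440_ZK, C01A2.5 and ZK795.1. M04C9.5 was above R186.7 by 2.90 ± 0.11 (adjusted p = 4.44e-18), and the lower neighbours in this order did not differ from each other past the threshold. R186.7 and ZK795.1, which lie on either side of the control, did differ from each other, by 0.81 ± 0.15 (adjusted p = 5.15e-04), with all 3 R186.7 libraries above all 3 of ZK795.1. R186.7 was also above C01A2.5, by 0.54 ± 0.14 (adjusted p = 7.32e-04). Within RM the order was R04E5.10, F55H2.6, F25H2.5, F26D12.1 and L4440_RM, and no neighbours in it differed past the threshold. R04E5.10 against F55H2.6 gave 1.01 ± 0.35 (adjusted p = 0.0589). R04E5.10 was above F25H2.5 by 1.89 ± 0.36 (adjusted p = 7.18e-03) and above F26D12.1 by 2.07 ± 0.37 (adjusted p = 9.93e-03).

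**Figure D2:**
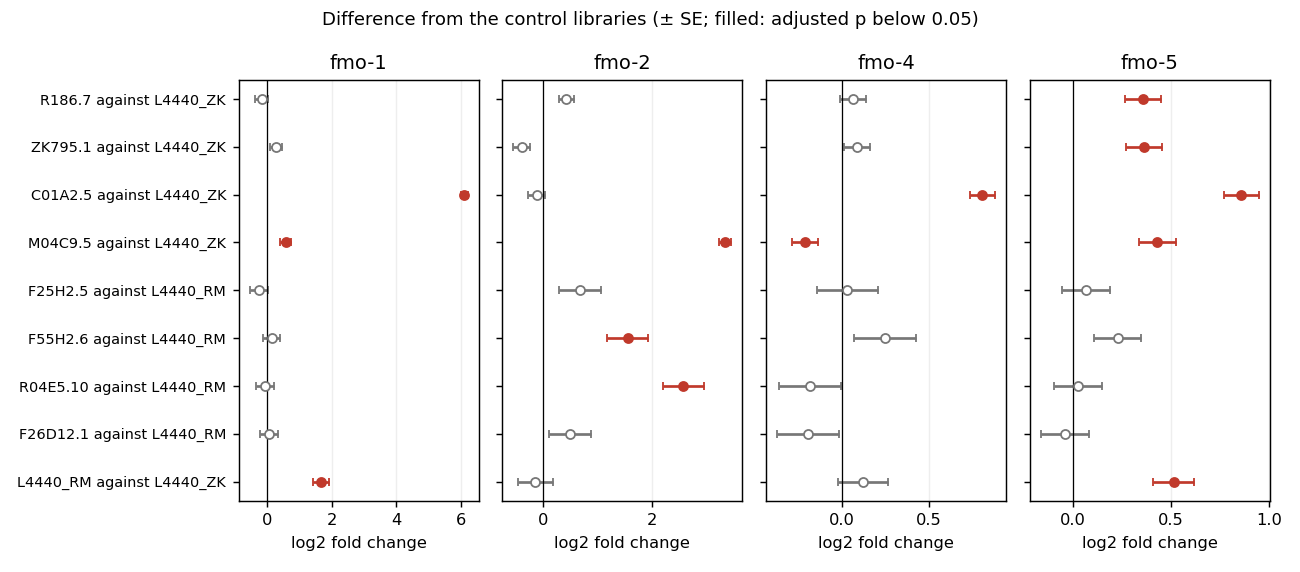
Log2 fold change ± SE of each fmo gene in 9 comparisons, with a separate horizontal scale per gene. Filled points have an adjusted p below 0.05. fmo-2 rose by 3.32, 2.56 and 1.55 in M04C9.5, R04E5.10 and F55H2.6, and fmo-1 rose by 6.10 in C01A2.5.

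The make-up of the summed level shifted under both labels in which fmo-2 rose most. Under the M04C9.5 label fmo-2 made up 54.9% of the summed level of the 4 genes per kilobase, against 11.0% in L4440_ZK, and fmo-4 made up 27.3% against 63.0%. The summed level itself was 28.0 ± 1.86 CPM per kilobase against 14.0 ± 1.31. Under the R04E5.10 label fmo-2 made up 36.5% against 8.05% in L4440_RM and fmo-4 made up 37.4% against 57.03%, at a summed level of 22.2 ± 2.35 against 16.8 ± 2.397. In F55H2.6 fmo-2 made up 18.1%. The level of fmo-4 itself was 7.63 ± 0.496 CPM per kilobase (SD) in M04C9.5 against 8.83 ± 0.762 in L4440_ZK. In R04E5.10 the fmo-4 level was 8.33 ± 1.36 against 9.61 ± 1.47 in L4440_RM.

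**Figure D3:**
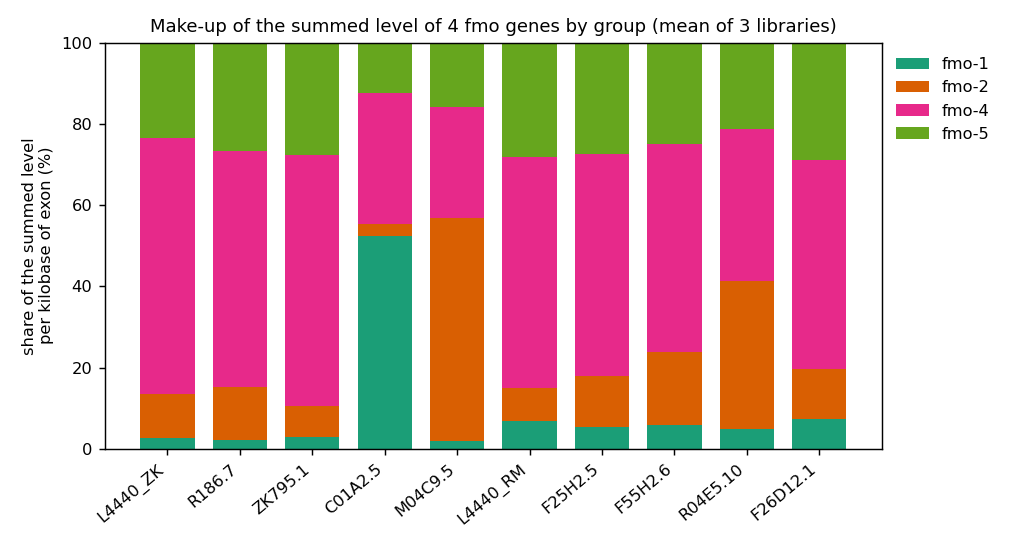
Share of fmo-1, fmo-2, fmo-4 and fmo-5 in their summed level per kilobase of exon, in percent, as the mean of 3 libraries per group. fmo-2 takes 54.9% in M04C9.5 and 36.5% in R04E5.10, and fmo-1 takes 52.4% in C01A2.5 against 2.61% in L4440_ZK.

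The effects under both labels were also set against each other in 1 model of all 30 libraries, a test chosen once the values were known. The M04C9.5 effect on fmo-2 exceeded the R04E5.10 effect by 0.79 ± 0.40 (adjusted p = 0.583), and the differences for fmo-1 and fmo-5 were 0.66 ± 0.34 (adjusted p = 0.587) and 0.44 ± 0.15 (adjusted p = 0.324). None of the 4 members passed, and 0.119% of all genes did. The 2 groups share no control library.

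Beside these values, some cell type markers moved as well. Libraries labelled M04C9.5 had a summed level of the 6 intestinal markers of 199.7 to 219.1 CPM against 236.9 to 245.6 in L4440_ZK, with 1 rising and 2 falling. The 6 hypodermal markers summed to 125.2 to 128.9 CPM against 150.4 to 159.4, with 1 rising and 3 falling. The 4 pharyngeal markers summed to 42.9 to 43.8 CPM against 26.9 to 30.0, with 3 rising. The 4 body wall muscle markers summed to 272.1 to 309.1 CPM against 328.4 to 374.9, with 2 falling, and the 4 excretory markers to 100.4 to 108.3 CPM against 85.3 to 91.2, with 2 rising. The 5 oocyte markers summed to 5972 to 6328 CPM against 6368 to 6854, with 2 falling, and no germline, neuronal or sperm marker passed. In R04E5.10 none of the 9 marker lists had a member past the threshold, and hypodermal sums ranged from 137.0 to 470.3 CPM against 241.9 to 444.8 in L4440_RM. Shares of all genes past the threshold were 19.8% in M04C9.5, 2.28% in R04E5.10 and 18.9% in F55H2.6. In F55H2.6, 4 of 5 germline and 4 of 5 oocyte markers fell and 1 of 5 neuronal markers rose. The part of these shifts in the fmo values was not tested, and in whole animals fewer cells of a type and less RNA per cell cannot be told apart.

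The genes next to fmo-2 did not pass the threshold under either label. In M04C9.5 the log2 difference was 0.24 ± 0.26 for K08C7.4 (adjusted p = 0.576) and -0.20 ± 0.08 for K08C7.6 (adjusted p = 0.0746). In R04E5.10 it was 0.20 ± 0.28 (adjusted p = 0.811) and -0.03 ± 0.12 (adjusted p = 0.938). In F55H2.6 K08C7.4 rose as well, by 0.84 ± 0.27 (adjusted p = 0.0405).

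fmo-1 rose furthest of all members in a single group. In C01A2.5, where tads-1 is the target, fmo-1 stood at 50.6, 53.0 and 47.8 CPM against 0.739, 0.686 and 0.750 CPM in L4440_ZK, or 1702 to 2257 counts against 22 to 31. There was no overlap. The log2 difference was 6.10 ± 0.11, a 68.5-fold rise (adjusted p = 1.95e-29). Among the 16495 genes tested this was the 1194th largest rise, with the 70th smallest p. fmo-1 took 52.4% of the summed level per kilobase there, against 2.61%. Sperm markers moved with it: all 6 rose, with a median log2 difference of 7.18, and their sum was 1123 to 1261 CPM against 15.7 to 18.3. All 5 oocyte markers fell, with a median of -1.53, and so did all 5 germline markers, with a median of -1.11. All 4 pharyngeal and all 4 body wall muscle markers rose, and 5 of 6 intestinal ones, while hypodermal, neuronal and excretory markers moved in both directions. Over all genes 88.1% passed there, with a median log2 difference of 0.42. The list medians were 0.95 for pharynx, 0.55 for body wall muscle and 0.57 for intestine. They were -0.71 for hypodermis, 0.895 for neurons and 0.76 for the excretory system. The part of these marker shifts in the fmo-1 value was not tested. The neighbours of fmo-1 rose too, by 1.97 ± 0.10 for K08C7.1 (adjusted p = 1.01e-17) and 1.87 ± 0.18 for K08C7.7 (adjusted p = 3.10e-11).

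The other members moved less in C01A2.5, where 88.1% of all genes passed the threshold and the median over all genes was itself 0.42. fmo-4 stood at 34.0, 31.9 and 28.2 CPM against 17.7, 19.5 and 16.4, a rise of 0.81 ± 0.07 (adjusted p = 1.26e-11). fmo-5 stood at 10.3, 9.83 and 11.2 CPM against 6.07, 6.05 and 5.13, a rise of 0.86 ± 0.09 (adjusted p = 2.88e-10). Neither overlapped its control. Relative to the median of all genes the differences were 0.38 for fmo-4, 0.43 for fmo-5 and -0.54 for fmo-2. Relative log expression factors moved that median by -0.23 and library totals by 0.24. The direction of fmo-2 against L4440_ZK depended on this choice, at -0.34 (adjusted p = 0.0317) with the first and 0.13 (adjusted p = 0.42) with the second.

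fmo-1 also differed between the empty-vector groups. L4440_RM had 1.97, 3.39 and 1.68 CPM and L4440_ZK 0.739, 0.686 and 0.750 CPM. All RM libraries were higher, by 1.67 ± 0.25 (adjusted p = 8.37e-06). Sperm marker sums were 27.0 to 32.3 CPM against 15.7 to 18.3, with 5 of 6 markers higher, where 43.8% of all genes differed. Other lists differed too: 5 of 6 hypodermal, all 4 pharyngeal, all 4 body wall muscle and 2 of 6 intestinal markers were higher in L4440_RM. There 4 of 5 germline, 3 of 5 oocyte, 1 of 6 intestinal, 1 of 5 neuronal and 1 of 4 excretory markers were lower. Both neighbours were higher, K08C7.7 by 0.67 ± 0.21 (adjusted p = 0.0118) and K08C7.1 by 0.39 ± 0.15 (adjusted p = 0.0311). The part of these shifts in fmo-1 was not tested. In the libraries labelled M04C9.5 fmo-1 stood at 0.971, 1.14 and 1.14 CPM, above the 3 controls, a rise of 0.57 ± 0.18 (adjusted p = 0.0304), with sperm marker sums of 14.7 to 17.3 CPM. These are 36 to 47 counts, and the adjusted p reached 0.0671 to 0.107 without any 1 of L4440_ZK replicates 1, 2 and 3 or M04C9.5 replicates 2 and 3. It was 0.0707 with DESeq2 and 0.194 in the fit of 30 libraries, and with all 6 L4440 libraries as control the difference turned to -0.49 (adjusted p = 0.359). The call held in 7 of 15 alternatives. In the remaining 6 treatments the log2 difference of fmo-1 lay between -0.27 and 0.26 and did not pass.

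fmo-5 had its lowest group mean in L4440_ZK. Its 3 libraries had 6.07, 6.05 and 5.13 CPM, while the R186.7 libraries had 7.53, 7.41 and 7.17, the ZK795.1 libraries 7.57, 6.92 and 7.59, and those labelled M04C9.5 7.47, 8.04 and 7.77. No L4440_ZK library overlapped any of these. The rises were 0.36 ± 0.09 in R186.7 (adjusted p = 0.0298), 0.36 ± 0.09 in ZK795.1 (adjusted p = 0.0305) and 0.43 ± 0.09 in M04C9.5 (adjusted p = 7.87e-04). These 3 comparisons, and that of C01A2.5, share the same 3 control libraries. R186.7, ZK795.1 and M04C9.5 did not differ from each other as neighbours in the order of means. L4440_RM, at 8.75, 8.07 and 7.76 CPM, was above L4440_ZK by 0.51 ± 0.11 (adjusted p = 3.08e-04). With all 6 L4440 libraries as the control, the log2 differences were 0.08 in R186.7, 0.08 in ZK795.1 and 0.16 in M04C9.5, and none passed. The R186.7 call was lost without L4440_ZK replicate 2 or 3 or any R186.7 library, with adjusted p-values up to 0.245, and the ZK795.1 call was lost without any 1 of its 6 libraries, with adjusted p-values up to 0.171. Over 15 alternatives the R186.7 call held in 6 and the ZK795.1 call in 4. Among the marker lists, 1 of 6 sperm markers rose in R186.7, where 2.55% of all genes passed. In ZK795.1, where 1.99% of all genes passed, 2 of 6 hypodermal markers rose and 2 of 6 intestinal markers fell. The part of these marker shifts in the fmo-5 values was not tested. In the RM treatments fmo-5 gave log2 differences of -0.04 to 0.23, and none passed.

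fmo-4, linked in worms to osmotic balance and calcium signalling, passed in M04C9.5 beside C01A2.5. Libraries labelled M04C9.5 had fmo-4 at 14.3, 15.7 and 16.3 CPM against 17.7, 19.5 and 16.4, which almost touched. The fall was -0.21 ± 0.08 (adjusted p = 0.0479), and the adjusted p reached 0.238 without L4440_ZK replicate 2, 0.205 without M04C9.5 replicate 1, 0.11 without M04C9.5 replicate 2 and 0.0774 without L4440_ZK replicate 1. It was 0.401 in the fit of 30 libraries, 0.27 with library totals, 0.133 with all 6 L4440 libraries as control, 0.0624 with the replicate block, 0.0572 without the filter and 0.051 without the C01A2.5 libraries. The call held in 5 of 15 alternatives, all with a fall. In the other 6 treatments its log2 difference lay between -0.20 and 0.25, and none passed. Within RM no pair of neighbouring groups differed. Of the 4 calcium genes linked to fmo-4 (crt-1, itr-1, mcu-1 and atf-6), only atf-6 moved in the RNAi comparisons apart from C01A2.5. atf-6, a regulator of the endoplasmic reticulum stress response, rose by 0.19 ± 0.07 in M04C9.5 (adjusted p = 0.0483). There 19.8% of all genes passed. In C01A2.5, 1 of the 4 rose and 2 fell, against 88.1% of all genes passing. Between the empty vectors 1 was lower in L4440_RM, against 43.8%.

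Counted over the 4 members, 1 passed in R186.7 and 1 in ZK795.1, where 2.55% and 1.99% of all genes did. In C01A2.5, 3 rose, against 88.1% of all genes passing, a share near the background. In M04C9.5, 3 rose and 1 fell, against 19.8%. In F25H2.5, 0 passed against 8.65%, with 4005 genes at an unadjusted p below 0.05. In F55H2.6, 1 rose against 18.9%, and in R04E5.10, 1 rose against 2.28%. In F26D12.1, 0 members passed against 0.00633% of genes, which is 1 gene. There 360 genes had an unadjusted p below 0.05 and DESeq2 called 4 genes, and it called 0 members in either F25H2.5 or F26D12.1. Between the empty vectors 2 rose against 43.8%. The median log2 difference of the 4 members was 0.50 in M04C9.5 against -0.003 over all genes, 0.83 against 0.42 in C01A2.5 and -0.02 against 0.002 in R04E5.10. It lay between 0.01 and 0.24 in the other 5 treatments.

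Between pairs of RNAi groups the share of all genes past the threshold was 8.51% for R186.7 against ZK795.1, 86.7% for R186.7 against C01A2.5, 17% for R186.7 against M04C9.5, 87.8% for ZK795.1 against C01A2.5, 24.6% for ZK795.1 against M04C9.5 and 87% for C01A2.5 against M04C9.5. It was 25.9% for F25H2.5 against F55H2.6, 8.15% for F25H2.5 against R04E5.10, 11.5% for F25H2.5 against F26D12.1, 18.9% for F55H2.6 against R04E5.10, 22.9% for F55H2.6 against F26D12.1 and 3.22% for R04E5.10 against F26D12.1. The pair R186.7 and ZK795.1 differed in 1 member, fmo-2, which was higher in R186.7.

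Regulators known to act on fmo-2 were looked up in the same comparisons. Of 10 such genes (hif-1, egl-9, vhl-1, nhr-49, mdt-15, hlh-30, skn-1, wdr-23, pha-4 and daf-16), 1 rose in M04C9.5, which was wdr-23, an adaptor that targets SKN-1 for degradation, by 0.14 ± 0.05 (adjusted p = 0.032), where 19.8% of all genes passed. In R04E5.10 and in F55H2.6, 0 of 10 passed, against 2.28% and 18.9% of all genes. The list's median was -0.03 in M04C9.5, -0.02 in R04E5.10 and -0.01 in F55H2.6, beside -0.003, 0.002 and 0.04 over all genes. In F25H2.5, where fmo-2 did not pass, vhl-1, which marks HIF-1 for degradation, rose by 0.46 ± 0.11 (adjusted p = 0.021). In C01A2.5, 3 rose and 7 fell, against 88.1% of all genes passing. In R186.7, ZK795.1 and F26D12.1 none passed. Transcript levels do not report protein activity of these regulators.

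Of 8 other genes known as targets of HIF-1, 0 rose and 2 fell in M04C9.5, a share near the 19.8% of all genes that passed there. These were cysl-2, a cysteine synthase relative, at -0.27 ± 0.07 (adjusted p = 0.0057), and sqrd-1, the sulfide quinone oxidoreductase, at -0.32 ± 0.08 (adjusted p = 4.55e-03). In R04E5.10, 0 of 8 passed, against 2.28% of all genes. In F55H2.6, 1 rose, against 18.9% of all genes passing: the nuclear receptor gene nhr-57, by 0.56 ± 0.11 (adjusted p = 2.24e-03). In R186.7 and in ZK795.1, 1 of 8 rose, against 2.55% and 1.99% of all genes passing. It was cysl-2 each time, by 0.27 ± 0.07 in R186.7 (adjusted p = 0.0239) and by 0.27 ± 0.07 in ZK795.1 (adjusted p = 0.0317). Both comparisons use the same L4440_ZK libraries. The list's median was -0.10 in M04C9.5, -0.22 in R04E5.10 and -0.06 in F55H2.6.

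Targets of NHR-49 moved in both directions. In M04C9.5, 2 of 8 rose and 4 fell, against 19.8% of all genes passing. acs-2, an acyl-CoA synthetase of fatty acid oxidation, rose by 1.43 ± 0.29 (adjusted p = 5.13e-03) and hacd-1, a hydroxyacyl-CoA dehydrogenase, by 0.51 ± 0.07 (adjusted p = 1.04e-06). icl-1, the glyoxylate cycle enzyme, fell by 0.64 on the log2 scale (adjusted p = 5.64e-11), and the desaturase fat-7 fell by 0.48 (adjusted p = 1.41e-07). In R04E5.10, 0 rose and 2 fell, fat-5 at -0.46 ± 0.10 (adjusted p = 0.0275) and icl-1 at -0.41 ± 0.10 (adjusted p = 0.0458), against 2.28% of all genes passing. In F55H2.6, 0 of 8 passed, against 18.9%. In ZK795.1, where fmo-2 was not past the threshold, 4 of 8 rose, against 1.99% of all genes passing, among them fat-7 by 0.56 ± 0.06 (adjusted p = 5.52e-08) and icl-1 by 0.34 ± 0.05 (adjusted p = 7.79e-05). The medians were -0.21 in M04C9.5, -0.24 in R04E5.10, -0.02 in F55H2.6 and 0.39 in ZK795.1.

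The genes that supply NADPH, the electron donor of these enzymes, form a list of 6. In M04C9.5, 0 rose and 4 fell, against 19.8% of all genes passing in either direction: gspd-1 (glucose-6-phosphate dehydrogenase) at -0.16 ± 0.05 (adjusted p = 0.0155), T25B9.9 at -0.15 ± 0.05 (adjusted p = 0.027), the malic enzyme gene men-1 at -0.24 ± 0.05 (adjusted p = 7.52e-04) and the transhydrogenase gene nnt-1 at -0.32 ± 0.09 (adjusted p = 0.0112). In R04E5.10, 0 of 6 passed, against 2.28% of all genes. In F55H2.6, 2 fell, against 18.9% of all genes passing. These were idh-1, isocitrate dehydrogenase, which fell by 0.30 (adjusted p = 5.14e-03), and men-1, which fell by 0.55 (adjusted p = 1.72e-04). Of 8 tested genes of tryptophan and kynurenine metabolism 3 fell in M04C9.5, tdo-2 by 0.41 (adjusted p = 5.60e-06), kynu-1 by 0.52 (adjusted p = 5.54e-09) and haao-1 by 0.41 (adjusted p = 4.20e-03). In R04E5.10, 0 of these passed, and in F55H2.6, 1 fell, the aminotransferase gene nkat-3, by 0.47 (adjusted p = 5.70e-03). tdo-2 encodes the dioxygenase that opens the pathway, and kynu-1 and haao-1 encode later steps. Of 12 genes of folate and methionine metabolism, 2 fell in M04C9.5 and 3 in F55H2.6, and 0 passed in R04E5.10. The shares of all genes that passed are those given for the NADPH list. The 2 in M04C9.5 were ahcy-1, which clears S-adenosylhomocysteine, at -0.30 ± 0.06 (adjusted p = 2.51e-04), and dhfr-1, dihydrofolate reductase, at -0.19 ± 0.06 (adjusted p = 0.0198). In M04C9.5 the median was -0.15 for the NADPH list, -0.10 for the tryptophan list and 0.02 for the folate and methionine list. In R04E5.10 these were 0.05, -0.16 and -0.01, and in F55H2.6 -0.05, 0.17 and -0.18.

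The genes whose pattern was most like that of fmo-2 were ranked by Pearson correlation of log2 CPM over the 30 libraries, among 12796 genes with a mean of at least 1 CPM. The highest was adh-1, an alcohol dehydrogenase, at r = 0.937 over all libraries, 0.959 within ZK and 0.963 within RM. It was followed by far-7, a fatty acid and retinol binding protein gene, at 0.893, fpn-1.2, a ferroportin relative, at 0.841, C40H1.7 at 0.840 and ZC395.5 at 0.836. The libraries are shared and grouped, so these values describe and do not test. By Spearman correlation 1 of the 5, adh-1, was again among the first 5. adh-1 went from 29.8 to 132.0 CPM in M04C9.5, a log2 difference of 2.14 ± 0.13, and from 33.0 to 126.3 CPM in R04E5.10 at 1.96 ± 0.36, and to 72.6 CPM in F55H2.6 at 1.12 ± 0.35. All 5 genes had positive differences in these 3 groups, which follows in part from how they were chosen.

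**Figure D4:**
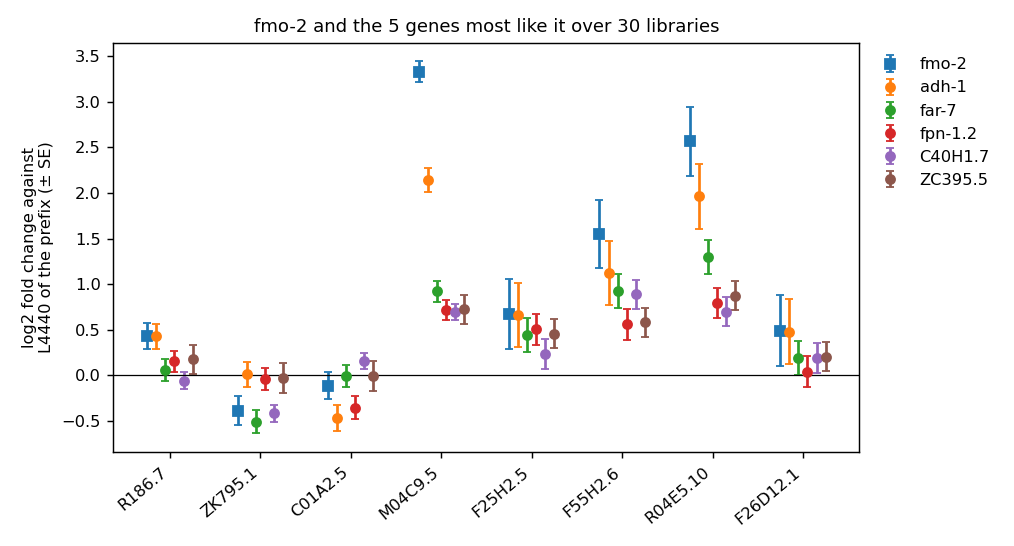
Log2 fold change ± SE against L4440 of the same prefix for fmo-2 (squares) and the 5 genes whose pattern is most like it (circles), in 8 treatments. fmo-2 lies above the other 5 in M04C9.5, R04E5.10 and F55H2.6, with adh-1 next at 2.14, 1.96 and 1.12.

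The other members had other nearest genes, ranked in the same way once the values were known. For fmo-1 the ranking follows the C01A2.5 libraries, where it is high, and its nearest gene, mpz-4, reached the minimum of 1 CPM only through them, at 46.6 CPM there and 0.116 CPM in L4440_ZK, so no likeness is given. fmo-4 was closest to nex-3, an annexin gene, at 0.949, with ZC412.3 at 0.948 and tdo-2 at 0.946. By Spearman correlation glna-2 came first for fmo-4, at 0.912. ZC412.3 and tdo-2 were again among the first 5 and nex-3 was not. fmo-5 had the weakest nearest gene, B0261.8 at 0.862, with 0.629 within RM.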

How the data were processed

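The members and gene lists were chosen with earlier results of these data known, and 1 member of the family is not reported here. The deposited counts per gene were used as they stand. Per the submitters' processing notes, reads were converted with bcl2fastq 1.8.4, aligned to WBcel235 with STAR 2.4.1d and counted with featureCounts 1.4.6-p4. How reads that fit several genes were treated is not given in the sources used here. The TruSeq RNA v2 kit named in the labels does not mark strand. The authors' RPKM table was not used, because its library totals do not follow the columns. Positions and lengths come from an annotation of the same build.

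After filterByExpr and scaling by the trimmed mean of M values (TMM), edgeR 4.0.16 under R 4.3.3 fitted robust quasi-likelihood models. The 15 libraries of each prefix were fitted together with 10 residual degrees of freedom, on 16495 genes (ZK) and 15795 genes (RM), and the L4440 groups in 1 model of all 30, on 16867 genes. SE is the log2 fold change over the square root of F. Levels use the scaling of all 30 libraries, and logs for correlations a prior count of 1. The code was tested on simulated counts. Simulated 1.5-fold changes were recovered for 62.1% of changed genes in ZK and 40.3% in RM. For 2-fold changes these shares were 93.8% and 64.2%, so changes of such sizes can be missed, more often in RM. No pair of replicates agreed within sampling noise, with a chi-square per degree of freedom of at least 5.20. It was highest for F55H2.6 replicate 1, at 86 and 85.2 against replicates 2 and 3, which gave 21.9 between them. Without F55H2.6 replicate 1, the log2 difference of fmo-2 in F55H2.6 was 1.27, with an edgeR adjusted p of 0.0411.

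Named genes were the members in every comparison, list members past the threshold (up to 4 by p), targets, neighbours and the 5 genes most like fmo-2. Alternatives were DESeq2 1.42.0, other scaling factors, leaving out the filter, fits of 6 or 30 libraries, all L4440 libraries as control, leaving out each library, replicates 1 and 2 of RM alone, no C01A2.5 libraries and a replicate block.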

Additional observations from a re-analysis of the deposited data

How the results depend on the processing

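Of 13 member values past the threshold, 6 stayed past it under every alternative tried, among them fmo-2 in M04C9.5 and fmo-1, fmo-4 and fmo-5 in C01A2.5. 1 changed sign, fmo-1 in M04C9.5, at -0.49 with all 6 L4440 libraries as control. With replicates 1 and 2 of every RM group alone, fmo-2 no longer passed in F55H2.6 (1.26) or R04E5.10 (2.11). The causes were not tested. The replicate numbers follow the order of titles only. Deviations of same-numbered libraries correlated with a median of -0.02 to 0.13. The highest median was that of the RM libraries numbered 3, with a maximum of 0.43. Between RM libraries of different groups and numbers the median was -0.036. The main fits do not pair libraries by number, and whether the RM libraries numbered 3 share a batch is not labelled. With the replicate block the number of members past the threshold was 3 in M04C9.5, where fmo-4 had -0.21 with an adjusted p of 0.0624, and no other call was lost. fmo-1 had 21 to 47 counts per ZK library outside C01A2.5, the fewest of the 4 members.

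The number of members past the threshold in M04C9.5 was 2 in a fit of 30 libraries, 1 with all 6 L4440 libraries as control, and 2 to 3 without single libraries. In R04E5.10 it was 0 with replicates 1 and 2 alone. In F55H2.6 it was 3 with all 6 L4440 libraries as control and 0 with replicates 1 and 2 alone. In R186.7 it was 0 in a fit of 30 libraries, with all 6 L4440 libraries as control, with DESeq2 or with relative log expression factors, 2 without the filter, and 0 to 1 without single libraries. In ZK795.1 it was 0 with the 6 libraries compared, a fit of 30, all 6 L4440 libraries as control, library totals or relative log expression factors, and 0 to 0 without single libraries. Of the 5 genes most like fmo-2, Spearman correlation kept 1.

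12 of 23 member values not past the threshold changed sign under some alternative. With all 6 L4440 libraries as control, fmo-1 was 0.36 in F25H2.5, 0.52 in R04E5.10 and -0.79 in ZK795.1, and fmo-5 was 0.20 in F26D12.1. With replicates 1 and 2 alone, fmo-1 was -0.0579 in F55H2.6, fmo-4 was -0.02 in F25H2.5, fmo-5 was -0.0032 in R04E5.10 and fmo-2 was 0.14 between the L4440 groups. Library totals gave 0.13 for fmo-2 in C01A2.5, and the fit of 30 libraries gave -9e-04 for fmo-5 in R04E5.10. Without single libraries fmo-1 ran from -0.46 to 0.0914 in F25H2.5, -0.28 to 0.42 in F26D12.1, -0.0605 to 0.49 in F55H2.6 and -0.26 to 0.29 in R04E5.10. fmo-2 ran from -0.26 to 0.0351 in C01A2.5 and -0.55 to 0.16 between the L4440 groups. fmo-4 ran from -0.0746 to 0.15 in F25H2.5, -0.0072 to 0.12 in R186.7 and -0.017 to 0.22 between the L4440 groups. fmo-5 ran from -0.0903 to 0.0285 in F26D12.1 and -0.0191 to 0.0811 in R04E5.10.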
